A study of Gallus gallus with 24 samples.

Results

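The genes of the cell cycle and of DNA replication were followed in abdominal fat of chickens of a fat line (FL) and a lean line (LL). Members were chosen by their symbols: origin recognition (ORC), minichromosome maintenance (MCM) and CDT1 genes, polymerase, clamp loader (RFC), PCNA, topoisomerase II and ribonucleotide reductase genes, A, B, D and E cyclins, cyclin-dependent kinases (CDK) and CDC genes, mitotic kinesins, centromere (CENP), aurora, BUB, polo-like (PLK) and MAD2 genes, and SMC genes. The rule found 50 genes on 75 spots, out of 6428 named genes among 15027 features tested, and no member was lost to the filter on missing values. CDC6, AURKA and PLK1 were not measured under the names used. 3 members match by their letters but name other proteins, namely MCM3AP, CDK2AP1 and CDK5RAP3, and they stay in all counts.

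The birds were male broiler-type chickens of both lines, bred apart over 7 generations for a heavy or a light abdominal fat pad. Fat was taken every second week from 1 to 11 wk of age, which gives 6 ages, with no other treatment named. Each of 24 spotted cDNA arrays held RNA of FL and of LL at 1 age, 4 arrays per age, with FL in the 647 channel on 2 of them and in the 555 channel on the other 2. The design names the replicates as biological, so the errors below measure birds and arrays together.

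A cell licenses its origins of replication by loading the MCM helicase with the help of ORC, CDC6 and CDT1, fires them in S phase under cyclin-dependent kinases, copies the DNA behind the PCNA clamp, and then condenses, attaches and parts the chromosomes. In growing fat, the cells that divide are mainly preadipocytes and cells of the stroma, vessels and blood, while mature adipocytes rarely do. Messages of the S and G2/M phases are therefore low in tissue with few dividing cells.

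Every value is the deposited log2 ratio of the lines on an array, or an estimate fitted to it. Such a ratio gives the difference between the lines at 1 age, never the level of a gene or its course with age within a line. In a whole tissue, fewer cells of a type and less RNA per cell cannot be told apart. The titles name FL first, so FL was likely the numerator, but the sources used here do not settle it. "Higher" is used for the line in the numerator, and all signs would reverse with LL in that place. Hepatocyte genes stood apart on 1 wk replicate 2 (median log2 ratio 1.43), on 5 wk replicate 1 (0.70) and, with the opposite sign, on 1 wk replicate 4 (-0.64). On 1 wk replicate 4 adipocyte genes had a median of 0.68 and erythrocyte genes 0.48, and on 7 wk replicate 4 skeletal muscle genes had -0.80. The part of these lists in the results below was not tested. Adipocyte genes (5 of 7 listed were measured) had a median of 0.017 in the mean over ages, leukocyte genes (7 of 10) 0.029, endothelial genes (7 of 8) 0.033, stromal genes (7 of 9) 0.064, erythrocyte genes (3 of 8) 0.052, skeletal muscle genes (6 of 10) -0.13 and hepatocyte genes (10 of 11) 0.088, and 0 genes of these lists passed the test in that mean. Ratios cannot show whether the cells these lists mark were present.

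Over the 6 ages together, none of the 50 genes passed the test for a difference between the lines (limma, adjusted p under 0.05). In the same test 2 of 15027 features did (0.0133%). At an unadjusted p under 0.05 there were 4 members, CCND1 and MAD2L1 higher and KIF2C and ORC6 lower, against 10.3% of all features (5.5% higher and 4.75% lower). As 8% of the members, that is close to the background and is no result about the group. The members' median log2 ratio was 0.0078 with 30 of 50 above 0, beside 0.0029 and 52.5% of all features. The estimates were narrow for most genes: the median standard error (SE) was 0.041, and the 95% interval lay within a 1.2-fold difference either way for 44 of 50 genes and within 1.5-fold for 50 of 50. These intervals bound the difference gene by gene in whole fat only if the ratios are read as deposited. They also require that the spots report the genes they name, and they do not show that the lines were alike. Residual ratios (age means and dye effect removed) of spots of the same gene had a median correlation of 0.025, and scanner signals were not used here. Fitted means of such spots had 1 sign in 6 of 19 genes, a count that decides little for values near 0. Turned by the dyes, a reading taken up below, 23 of 50 members passed the test, beside 37.9% of all features, and CCNB3 stood at -0.28 (SE 0.0412).

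**Figure D1:**
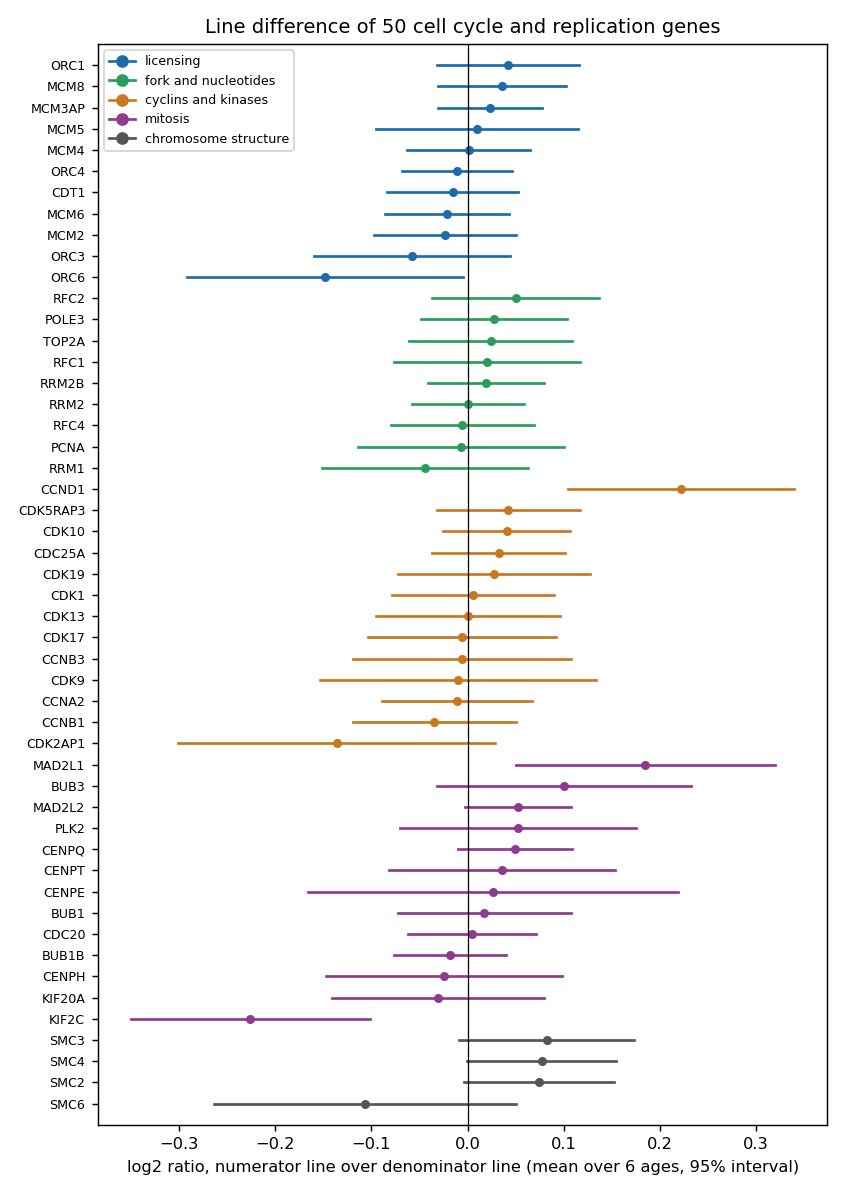
Fitted log2 ratio of each of the 50 genes as the mean over 6 ages (x axis, numerator over denominator line), with its 95% interval, grouped and coloured by role. CCND1 at 0.22 and MAD2L1 at 0.18 lie farthest to the right and KIF2C at -0.23 farthest to the left, and most other points lie within 0.1 of 0.

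Of the 11 licensing genes, 5 lay above 0 in the mean over ages, with a median of -0.011, and 0 passed the test. ORC6, the smallest subunit of the origin recognition complex, had the lowest estimate of the group with the ratios as deposited, -0.15 (SE 0.0688, adjusted p 0.464). Its deposited ratios ran from -0.91 to 0.63 with a median of -0.076, and lay below 0 on 17 of 24 arrays. The arrays thus spread over both sides of 0, and without 3 wk replicate 4 the estimate was -0.091. With the ratios turned by the dyes, a reading taken up below, ORC6 stood at -0.097 and CDT1 was the lowest of the group at -0.19 (adjusted p 0.00206). The other subunits measured, ORC1, ORC3 and ORC4, stood at 0.042, -0.058 and -0.011. The helicase subunits MCM2, MCM4, MCM5 and MCM6 stood between -0.024 and 0.010. MCM5 had an estimate of 0.010 (SE 0.0505), and its deposited ratios ran from -0.48 to 0.61 with a median of -0.042. MCM8, a helicase used in DNA repair, stood at 0.036. CDT1, the loading factor that is destroyed once S phase begins, had a mean of -0.016 (SE 0.0327), which joins ages that differ and is taken up below.

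Of the 9 genes of the fork and of nucleotide supply, 6 lay above 0, with a median of 0.019, and all 9 estimates fell between -0.044 and 0.050. PCNA, the sliding clamp that holds the polymerases, stood at -0.0066 (SE 0.0514, 95% interval -0.11 to 0.10). Its deposited ratios ran from -0.63 to 0.54 with a median of 0.015, above 0 on 13 of 24 arrays. RRM2, the S phase subunit of ribonucleotide reductase, stood at 0.00039 (SE 0.0281, 95% interval -0.058 to 0.059), among the narrowest intervals of the group. Its partner RRM1, the large subunit, stood at -0.044 (SE 0.0514), and RRM2B, the small subunit induced by p53, at 0.019. TOP2A, the topoisomerase that untangles sister chromatids, stood at 0.024 (SE 0.0408) as the mean of 3 spots. The clamp loader subunits RFC1, RFC2 and RFC4 stood at 0.020, 0.050 and -0.0054. All these values hold for the ratios as deposited. In the reading turned by the dyes, taken up below, RRM2 stood at -0.12 (adjusted p 0.000927) and RFC2 at 0.13 (adjusted p 0.0107). RRM2B stood there at 0.074 (adjusted p 0.0174) and POLE3 at -0.096 (adjusted p 0.0257). The other genes of this group, PCNA among them at 0.086 (adjusted p 0.155), did not pass in that reading, where 37.9% of all features did.

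Of the 13 cyclins, kinases and their partners, 7 lay above 0, with a median of 0.00022. CCND1, the D cyclin that couples growth signals to entry into S phase, had the smallest p of all 50 genes with the ratios as deposited, yet 95 features of 15027 ranked at or before it. Its deposited ratios ran from -0.40 to 0.65 with a median of 0.21, and lay above 0 on 18 of 24 arrays. The fitted mean was 0.22 (SE 0.0565, adjusted p 0.117). Fitted values were above 0 at each of the 6 ages, from 0.14 at 11 wk to 0.35 at 3 wk. With the ratios as deposited, S and G2/M members of the same families stood near 0. CCNA2, the S and G2 cyclin, stood at -0.011 (SE 0.0375), CCNB1, the mitotic cyclin, at -0.034 (SE 0.0409), and CDK1, the kinase both activate, at 0.0055 (SE 0.0406). CDC25A, the phosphatase that activates cyclin-dependent kinases, stood at 0.032 (SE 0.0332) on 4 spots. Turned by the dyes, CCNA2 stood at 0.039, CCNB1 at -0.076 (adjusted p 0.058) and CCND1 at -0.10 (adjusted p 0.0947). CDK1 and CDC25A both stood at -0.13 in that reading (adjusted p 0.0127 and 0.00119). CDK2AP1, a CDK2-associated protein and chromatin subunit, had the lowest estimate of these 13 as deposited, -0.14 (SE 0.0792, adjusted p 0.605).

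Of the 13 mitosis genes, 9 lay above 0, with a median of 0.026, and they held both a high and a low extreme. KIF2C, the kinesin that takes microtubules apart at the centromere to correct faulty attachments, had the lowest estimate of all members with the ratios as deposited. Its deposited ratios ran from -0.78 to 0.40 with a median of -0.21, below 0 on 17 of 24 arrays. The fitted mean was -0.23 (SE 0.0596, adjusted p 0.127). Leaving out 5 wk replicate 2, where its deposited ratio was 0.40, gave -0.25 and an adjusted p of 0.0338, and 1.13% of all features passed in that fit. Over the 24 fits with 1 array left out the mean of KIF2C ran from -0.26 to -0.19. Among them it passed only without 5 wk replicate 2. Turned by the dyes, KIF2C stood at -0.015 (adjusted p 0.834). KIF2C has 1 spot, which keeps its name whether or not row and column are exchanged.

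MAD2L1, the checkpoint protein that holds the anaphase promoting complex until chromosomes are attached, had the opposite sign. Its deposited ratios ran from -0.41 to 0.87 with a median of 0.18, above 0 on 15 of 24 arrays, and its mean was 0.18 (SE 0.0648, adjusted p 0.276). MAD2L2, a relative that acts in translesion synthesis, stood at 0.053 (SE 0.0265, adjusted p 0.516), above 0 on 17 of 24 arrays. The checkpoint partners BUB1, BUB1B and BUB3 stood at 0.017, -0.018 and 0.100, and CDC20, the activator that the checkpoint restrains, at 0.0048. KIF20A, a kinesin of cytokinesis, stood at -0.031. The centromere genes CENPE, CENPH, CENPQ and CENPT lay between -0.024 and 0.049. With the ratios as deposited, the fitted values of the checkpoint partners thus lay on both sides of 0. That of BUB3 averages 2 spots, at 0.19 (SE 0.115) and -0.0015 (SE 0.0478). In the reading turned by the dyes, BUB1 stood at -0.22 (adjusted p 7.94e-05) and CDC20 at 0.085 (adjusted p 0.0295). BUB1B at 0.062 (adjusted p 0.0938) and BUB3 at 0.11 (adjusted p 0.185) did not pass there.

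Of the 4 SMC genes, 3 lay above 0 with the ratios as deposited. SMC2 and SMC4, the core pair of condensin, stood at 0.074 (SE 0.0373) and 0.077 (SE 0.0373, adjusted p 0.491), and SMC3, a core subunit of cohesin, at 0.082 (SE 0.0439). SMC6, of the repair complex SMC5/6, stood at -0.11 (SE 0.0754). The value of SMC4 was 0.030 without 7 wk replicate 2 and 0.034 without 7 wk replicate 4. SMC3 lay above 0 on 12 of 12 arrays with FL in 555 and on 4 of 12 with FL in 647. In the reading turned by the dyes it stood at -0.19 (adjusted p 0.00183). SMC2 at -0.0059, SMC4 at -0.016 and SMC6 at 0.14 did not pass there (adjusted p 0.907, 0.704 and 0.14).

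The single ages asked whether the lines differed at some stage of growth. At each of the 6 ages 0 of 50 members passed the test. Of all features, 1.22% passed at 3 wk, 0.0266% at 11 wk, 0.00665% at 7 wk and 0% at 1, 5 and 9 wk. With every array given the same weight, no feature passed at 3 wk. At an unadjusted p under 0.05 there was 1 member at 1 wk (all features 2.2%), 5 at 3 wk (11.9%), 1 at 5 wk (2.16%), 1 at 7 wk (4.2%), 3 at 9 wk (6.65%) and 3 at 11 wk (6.34%). The members' median ratio was between -0.0045 at 3 wk and 0.037 at 9 wk, where 35 of 50 lay above 0, beside 55.8% of all features and their median of 0.016. The median SE of a member ran from 0.070 at 11 wk to 0.115 at 5 wk, so 18 of 50 intervals at 1 wk and 40 of 50 at 11 wk lay within a 1.2-fold difference. That gain at 11 wk rested on the array weights. With equal weights the median SE over all features was 0.11 at every age. The members at an unadjusted p under 0.05 were then 1, 4, 2, 1, 3 and 0 at the ages in order. The shares of all features were 2.67%, 6.87%, 2.91%, 3.13%, 8.84% and 1.33%.

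**Figure D2:**
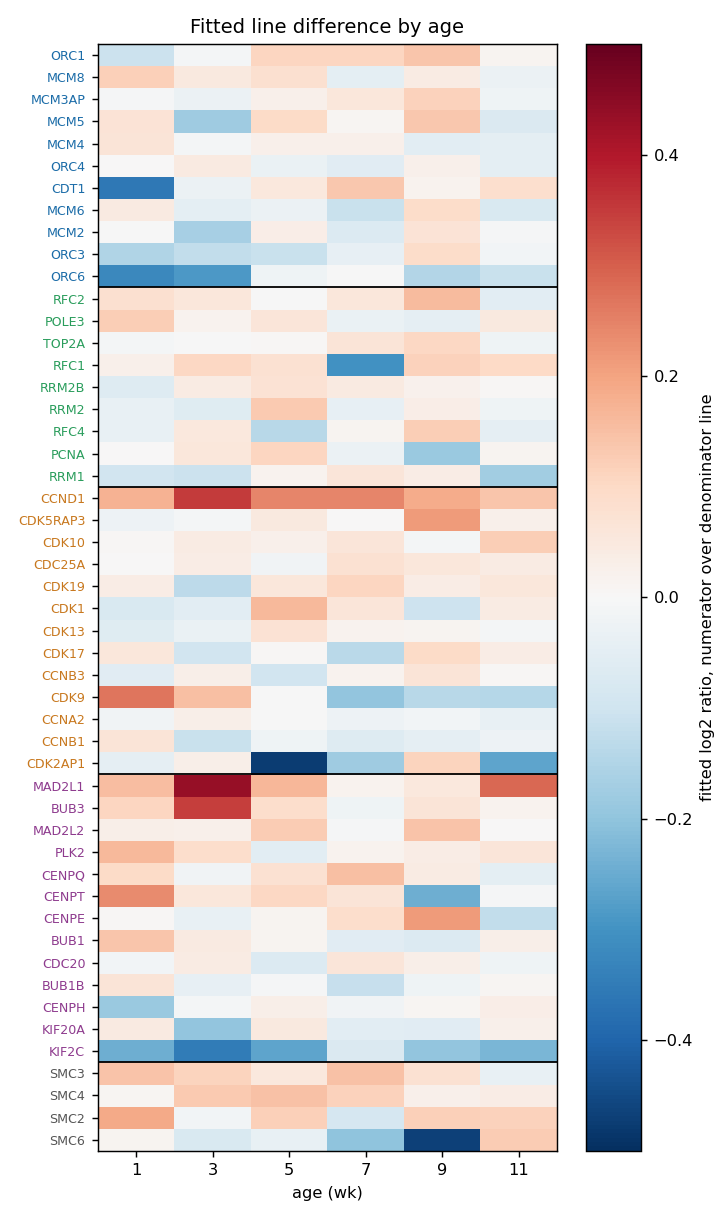
Fitted log2 ratio (colour, red for higher and blue for lower in the numerator line) of the 50 genes, in rows by role, at 6 ages in columns. CCND1 is above 0 and KIF2C below 0 in every column, CDT1 is deep blue at 1 wk (-0.36), and most cells are pale.

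With the ratios as deposited, CDT1 at 1 wk had the smallest p of a member at a single age. At 1 wk its deposited ratios were -0.39, -0.45, -0.0012 and -0.52 in replicates 1 to 4. All 4 arrays lay below 0, replicate 3 barely so. The fitted value was -0.36 (SE 0.0875, unadjusted p 0.000549), the fifth smallest p of 15027 features, with an adjusted p of 0.999. From 3 to 11 wk its fitted values were -0.029, 0.053, 0.13, 0.019 and 0.085, all within about 2 SE of 0. The slope with age was 0.035 per week (SE 0.00893, unadjusted p 0.000847), and the F test for any difference among ages gave an unadjusted p of 0.00546. Neither passed the test over all features (adjusted p 0.9999 and 0.999996), where 0% of features passed. The 1 wk value rested on 1 of its 2 clones, which stood at -0.64 (SE 0.193), while the other stood at -0.049 (SE 0.109). Without 1 wk replicate 2 and 5 wk replicate 1, the arrays with high liver genes, the 1 wk value of CDT1 was -0.42, and without 1 wk replicate 4 it was -0.34. With single arrays left out it ran from -0.42 to -0.27. Turned by the dyes it was -0.13 (SE 0.111, adjusted p 0.585). Its licensing partners at 1 wk were ORC6 at -0.32 (SE 0.184), with deposited ratios of -0.57, -0.23, -0.035 and -0.35, and MCM5 at 0.068 (SE 0.135). ORC6 at 1 wk was -0.16 without replicate 1 and -0.46 without replicate 2. SMC2 had 0.42, -0.14, 0.22 and 0.13 at 1 wk, fitted at 0.19 (SE 0.0998), and 0.34 without those 2 arrays. With single arrays left out SMC2 was 0.0094 without replicate 1, 0.095 without replicate 3 and 0.34 without replicate 2.

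At 3 wk the 3 members with the smallest p were MAD2L1, CCND1 and KIF2C, which also led the mean over ages that contains this age. The deposited ratios of MAD2L1 were -0.23, 0.87, 0.70 and 0.21. Replicate 1 lay on the other side of 0 from the other 3. The fitted value was 0.43 (SE 0.138, adjusted p 0.138). Without replicate 1 it was 0.56 with an adjusted p of 0.0391, in a fit where 1.59% of features passed. With single arrays left out the 3 wk value of MAD2L1 ran from 0.30 to 0.56. Turned by the dyes it was 0.14 (adjusted p 0.687). CCND1 had deposited ratios of 0.32, 0.54, 0.32 and 0.24, all above 0 and close together, and a fitted value of 0.35 (SE 0.12, adjusted p 0.184). These ratios average 2 clones, fitted at 3 wk at 0.078 (SE 0.125) and 0.62 (SE 0.159), so the latter clone carried most of the value. KIF2C had -0.16, -0.41, 0.13 and -0.75, with a fitted value of -0.35 (SE 0.127, adjusted p 0.223). It depended on single arrays, at -0.53 without replicate 3 and -0.13 without replicate 4.

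**Figure D3:**
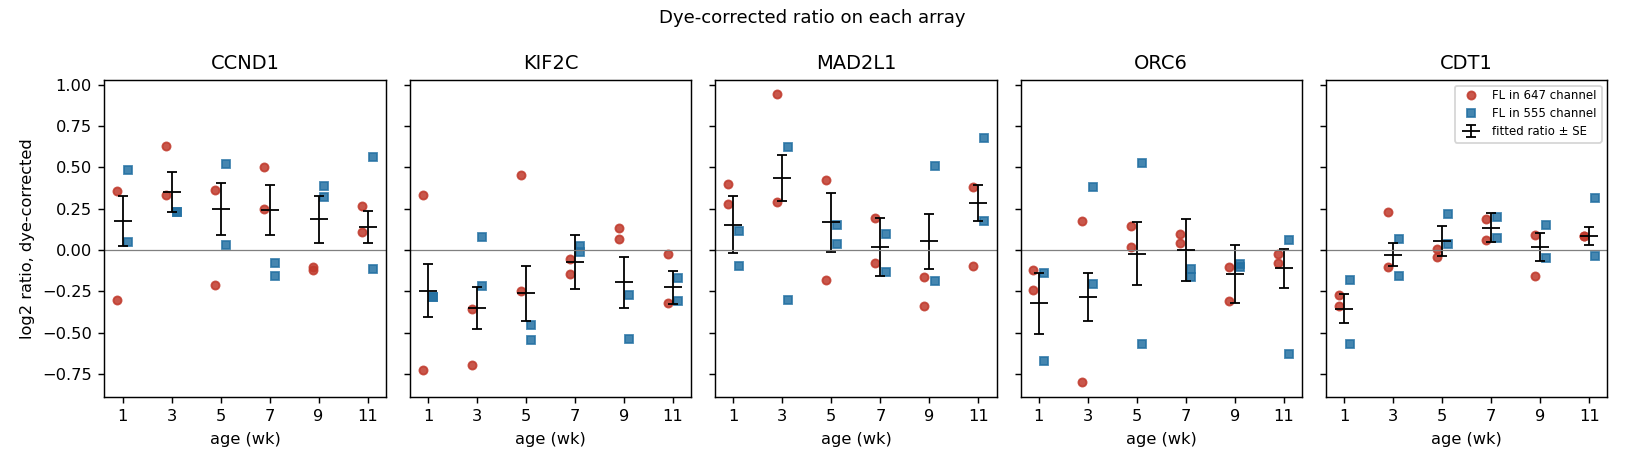
Dye-corrected log2 ratio (y axis) of 5 genes on each of the 24 arrays by age in weeks. Red circles are arrays with FL in the 647 channel, blue squares those with FL in 555, and black bars the fitted ratio with its SE. CCND1 lies above 0 on 17 of 24 arrays and KIF2C below 0 on 18, and the 4 arrays of CDT1 at 1 wk lie below 0.

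At later ages some leading genes of 3 wk came back, CCND1 at 7 wk and MAD2L1 and KIF2C at 11 wk, beside other genes. At 5 wk CDK2AP1 had deposited ratios of -0.87, 0.038, -0.58 and -0.38. Replicate 2 stood apart from the other 3, and the fitted value was -0.47 (SE 0.22, adjusted p 0.9998), or -0.25 without the 2 arrays with high liver genes, -0.27 without replicate 1 and -0.31 without replicate 3. RRM2 at 5 wk had 0.26, 0.035, 0.23 and 0.016, fitted at 0.13 (SE 0.0781), and MAD2L2 was fitted at 0.12 (SE 0.0736). At 7 wk RFC1, the large clamp loader subunit, had -0.49, -0.73, 0.054 and 0.24, so the 4 arrays fell into a low and a high pair. Its fitted value was -0.30 (SE 0.125, adjusted p 1), which became -0.48 (adjusted p 0.0494) without replicate 3, where 2.86% of features passed, and -0.040 without replicate 2. CENPQ, a subunit of the centromere network, was fitted at 0.15 (SE 0.0766) at 7 wk, and CCND1 at 0.24 (SE 0.152), or -0.077 without replicate 2 and -0.0053 without replicate 4. The 2 spots of CENPQ lay on opposite sides of 0 at 7 wk, at 0.36 (SE 0.122) and -0.061 (SE 0.158).

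At 9 wk SMC6 had deposited ratios of -0.38, -0.29, -0.92 and -0.35, all below 0. Its fitted value was -0.47 (SE 0.192, adjusted p 0.746), while at 11 wk it was 0.13 (SE 0.128). CDK5RAP3, which takes part in protein modification by UFM1, had -0.20, 0.47, 0.16 and 0.47 at 9 wk and a fitted value of 0.21 (SE 0.0911, adjusted p 0.746). MAD2L2 had 0.023, 0.20, 0.12 and 0.26 at 9 wk, all above 0, fitted at 0.14 (SE 0.0676). At 11 wk MAD2L1 had 0.75, 0.30, 0.25 and -0.17, fitted at 0.29 (SE 0.11, adjusted p 0.659). CDK10, a kinase that pairs with cyclin M, was fitted at 0.12 (SE 0.054), or 0.068 without replicate 1 and 0.20 without replicate 2. The 2 spots of CDK10 stood at 0.27 (SE 0.0838) and -0.020 (SE 0.0801) at 11 wk. KIF2C at 11 wk was fitted at -0.23 (SE 0.101, adjusted p 0.74).

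Slopes with age were led, after CDT1, by CDK9, the elongation kinase of P-TEFb, at -0.044 per week (SE 0.0188), and by CENPT, a centromere protein that anchors the kinetochore, at -0.031 per week (SE 0.0154). Of 50 members, 2 had an unadjusted p under 0.05 for the slope, beside 2.93% of all features, and 1 for the difference among ages, beside 2.14%. The slope of CENPT was -0.013 without 1 wk replicate 1, where its deposited ratio was 0.80.

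For 19 of the 50 genes several spots carried the gene, so spots of the same gene could be set beside each other. Over 32 pairs of spots of the same gene, the residual ratios (age means and dye effect removed) had a median correlation of 0.025, beside 0.0096 for 2743 pairs of spots of different member genes. These are descriptions over the same 24 arrays. In the mean over ages the spots of a gene had 1 sign in 6 of 19 genes. For CCND1 both clones lay above 0, at 0.11 (SE 0.0591) and 0.31 (SE 0.0756). For MCM4 they stood at -0.095 (SE 0.037) and 0.092 (SE 0.0614), so their mean near 0 joined values on opposite sides. In their residual ratios, spots of these genes thus repeated each other little. The count of signs cannot decide this, because error alone can part the signs of values near 0. The names were taken with row and column of the spot identifier exchanged, under which 10 hepatocyte genes correlated at a mean r of 0.42 over the arrays, against -0.0059 with the names as given. The spots of the cell cycle genes showed no such correlation among themselves. Spots of the same gene had a median of 0.040 over 30 pairs with the names as given, against 0.025 with the names exchanged. That comparison did not favour the exchange, and for the 31 genes on 1 spot it could not be made. With the names as given, other spots carry these genes, and 2 members passed the test at 3 wk (1.08% of features).

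**Figure D4:**
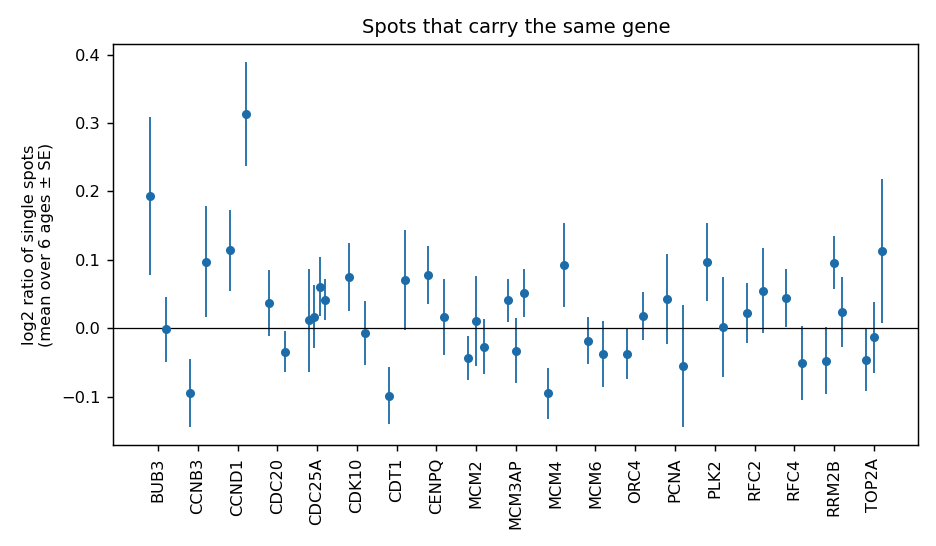
Fitted log2 ratio of single spots, as the mean over 6 ages with its SE (y axis), for the 19 genes carried by 2 to 4 spots. The spots of 6 genes lie on the same side of 0, CCND1 among them, and those of the others lie on both sides.

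With the ratios as deposited, the fit holds a dye term, the part of a ratio that alternates with the dye orientation. This term passed the test for 18 of 50 members, 36%, close to the 33.6% of all features. Whether it holds a dye effect or a difference between the lines is taken up below and is not settled. CENPQ had a deposited ratio above 0 on 12 of 12 arrays with FL in 647 (0.12 to 0.54, median 0.27) and below 0 on 12 of 12 with FL in 555 (-0.40 to -0.031, median -0.14). The 2 spots averaged for CENPQ had dye components of 0.039 and 0.45, so the latter spot carried most of its alternation. CDK5RAP3 lay above 0 on 12 of 12 and below 0 on 10 of 12. BUB1 went the other way, below 0 on 11 of 12 arrays with FL in 647 and above 0 on 11 of 12 with FL in 555. RRM2 was below 0 on 8 of 12 and above 0 on 11 of 12. Of the 19 genes with several spots, 9 had dye components of the same sign on all their spots. Each age holds both orientations in equal number, and the fit takes the alternation off as a dye term.

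**Figure D5:**
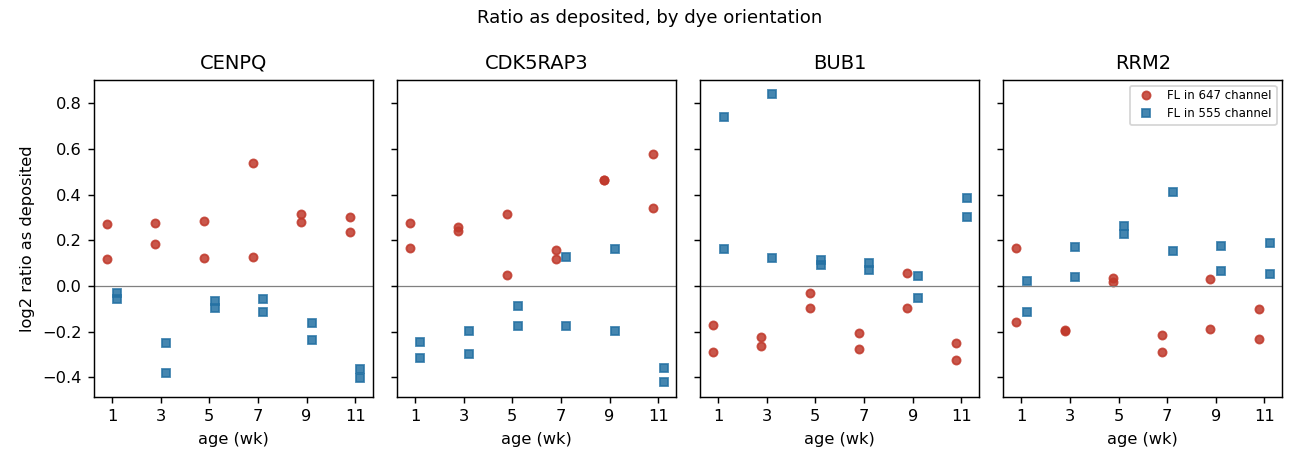
Deposited log2 ratio (y axis) by age in weeks for CENPQ, CDK5RAP3, BUB1 and RRM2, red circles for arrays with FL in the 647 channel and blue squares for FL in 555. For CENPQ every red point lies above 0 and every blue point below, and for BUB1 the order is reversed on nearly all arrays.

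The same alternation would be the line difference if each deposited value were 647 over 555, which the sources used here do not settle. With the ratios turned accordingly, 23 of 50 members passed the test in the mean over ages, 10 higher and 13 lower, or 46% beside 37.9% of all features. By age, turned ratios called 1 member at 1 wk (3.41% of features), 2 at 3 wk (4.58%), 6 at 5 wk (6.64%), 8 at 7 wk (17.9%), 2 at 9 wk (6.28%) and 8 at 11 wk (13.1%). They called 2 in the difference among ages (5.76%) and 2 in the slope (2.74%). They were led by CDK5RAP3 at 0.23 (SE 0.0287), CENPQ at 0.22 (SE 0.0268), CCNB3, a B-type cyclin, at -0.28 (SE 0.0412), BUB1 at -0.22 (SE 0.0346) and PLK2, a polo-like kinase, at 0.24 (SE 0.0412). BUB1 at 1 wk stood at -0.35 (adjusted p 0.0355) and CDK5RAP3 at 11 wk at 0.42 (adjusted p 3.79e-05). MCM5, at 0.13 (adjusted p 0.0318), and MAD2L2, at 0.065 (adjusted p 0.0323), passed as well. In that reading CCND1 stood at -0.10 and MAD2L1 at -0.046. Control clones were measured the same way. For a clone printed 94 times the dye component varied between copies with an SD of 0.17 against an error of 0.056, while its mean ratio varied with an SD of 0.056. For a second control clone with 29 copies the SDs were 0.16 and 0.037 (error 0.047). Whether the alternation is a dye effect, a line difference or both was not tested.

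Within each orientation, where line and dye can no longer be parted, 9 of 50 members passed the test among arrays with FL in 555 and 9 among those with FL in 647, or 18%, beside 14% of features in each. CCND1 stood at 0.30 with FL in 555 and 0.08 with FL in 647, KIF2C at -0.19 and -0.19, MAD2L1 at 0.21 and 0.10, and ORC6 at -0.04 and -0.21. Of these 4, KIF2C had the same fitted value in both orientations to 2 decimals, from separate fits with their own array weights. Its deposited medians differed, at -0.15 with FL in 647 and -0.23 with FL in 555. KIF2C and CCND1 were among the members that passed the test with FL in 555.

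Genes of a proliferation programme move together where the number of dividing cells varies between samples, and this was described for the residual ratios. The mean pairwise correlation of the 50 genes over the 24 arrays was 0.025, beside 0.014 over all named genes. Of 1225 pairs, 54 (4.41%) exceeded a correlation of 0.5, beside 4.7% of pairs of named genes. The highest was 0.80, between BUB1B, the checkpoint kinase-like BUBR1, and MCM8. All pairs share the same arrays and dyes. Genes of the same role group had a mean of 0.038.

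Of 108 further cell cycle genes listed by name (E2F and RB factors, inhibitors, checkpoint kinases, replication factors, chromosomal passengers, kinetochore and cohesin genes), 43 were measured. In the mean over ages 0 passed the test, and at an unadjusted p under 0.05 1 was higher and 5 were lower (13.95% of the list, beside 10.3% of features). FBXO5, the inhibitor EMI1 of the anaphase promoting complex, stood at 0.16 (SE 0.0447, adjusted p 0.154), and MDM2, the ligase that degrades p53, at -0.088 (SE 0.0347, adjusted p 0.358). 1 gene of this list passed the test at any single age. CHAF1B, a subunit of the chromatin assembly factor that works behind the fork, was lower at 3 wk, at -0.36 (SE 0.0875, adjusted p 0.0417), where 1.22% of all features passed. It was picked out after its value was seen, and no feature passed at 3 wk when the arrays had equal weights.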

How the data were processed

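The authors deposited log2 ratios, 1 for each of 19200 spots on an array, made with limma 3.4.5 in R 2.11.1 per the submitters' processing notes. How they corrected background, normalized and chose the sign is not given in the sources used here. The base 2 is an assumption from limma's default. Scanner signals were not used here, so precision is known only through the spread between arrays and their number. On 1 wk replicate 4, 160 spots had no value.

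Spots were named from the platform annotation after exchanging row and column, for names only with RefSeq (assembly GRCg7b), which held all 75 member spots and changed 0 symbols. 123 spots of 2 control clones were left out, spots of 1 symbol were averaged, and a feature needed a value on at least 3 of 4 arrays of every age.

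limma 3.58.1 (R 4.3.3, statmod 1.5.0) fitted 6 age coefficients and a dye term with array weights (0.407 to 3.48) and eBayes, with Benjamini-Hochberg adjustment over 15027 features. Dye-corrected ratios have the dye term taken off. The fit was tested on simulated data. Alternatives covered weights, dye, direction, pairing, arrays left out, spots, centring, scaling and naming. The sources name no extraction or print batch.

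Members and lists were chosen with earlier results of these data known. Named members were the 6 with the smallest p in the mean over ages, the 3 at each age, in the difference among ages and in the slope, and a short list always named. From the further genes, the 2 with the smallest p were named. Sequences were not used here.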

Additional observations from a re-analysis of the deposited data

Results flagged for a closer look

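Of 144 sets of 4 arrays (1 named gene, or the members' median, at 1 age, dye-corrected log2 ratios), 10 had 1 array far from the other 3, where chance gives about 1 in 20. On 3 wk replicate 1 there were 4: BUB1 at 0.61 (the others -0.11 to 0.010), CCNA2 at 0.36 (-0.037 to 0.0022), CDK5RAP3 at 0.078 (-0.033 to -0.014) and RRM2 at 0.056 (-0.083 to -0.073). SMC2 stood at 0.13 on 3 wk replicate 2 (the others -0.057 to -0.039) and at 0.43 on 9 wk replicate 2 (0.0092 to 0.055). ORC6 stood at -0.31 on 9 wk replicate 2 (-0.10 to -0.088). CDK9 stood at -1.15 on 7 wk replicate 3 (-0.016 to 0.13), SMC4 at -0.086 on 5 wk replicate 4 (0.25 to 0.28), and CCNA2 at 0.30 on 11 wk replicate 1 (-0.14 to -0.069). The deposited ratio of BUB1 on 3 wk replicate 1 was 0.84, the highest of its 24 arrays.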

How the results depend on the processing

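The count of members that passed the test stayed 0 in all 9 comparisons under equal array weights, no dye term, replicate block, median of spots, spots kept single, centring, scaling, quantile normalization, robust prior, complete features and without both arrays with high liver genes. With the names as given, 2 members passed at 3 wk (1.08% of features). With the ratios turned by the dyes, 23 members passed in the mean, beside 37.9% of features. At the ages in order 1, 2, 6, 8, 2 and 8 passed, beside 3.41%, 4.58%, 6.64%, 17.9%, 6.28% and 13.1% of features. In the difference among ages 2 passed (5.76% of features) and in the slope 2 (2.74%). Within each dye orientation 9 passed in the mean, beside 14% of features in each. Leaving out 1 array gave 0 to 1 members in the mean, at 3 wk and at 7 wk. Where 1 member passed, the shares of features were 1.13%, 1.59% and 2.86% in that order. The members' median at 3 wk was -0.0045 and became 0.0082 with equal weights or only that age's arrays, 0.0084 scaled, 0.0092 with no dye term, 0.010 after quantile normalization, -0.032 turned, and -0.011 to 0.021 with 1 array left out.

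The direction of the ratios reversed large as well as small values. Turned by the dyes, the means were CCND1 -0.10, MAD2L1 -0.046, SMC4 -0.016, PCNA 0.086, RRM2 -0.12, CCNA2 0.039, CDK1 -0.13 and BUB1 -0.22, and by age SMC2 -0.17 and ORC6 0.014 (1 wk), CDK2AP1 0.22 and RRM2 -0.11 (5 wk), SMC6 0.21 (9 wk), MAD2L1 -0.15 and CDK10 -0.21 (11 wk), with slopes of CDT1 -0.0068 and CENPT 0.027. The means of CDT1 (-0.19), MCM5 (0.13) and MAD2L2 (0.065) and CENPQ at 7 wk (0.19) kept their sign and passed the test when turned. With names as given they were SMC4 -6.35e-05, MCM5 -0.057, PCNA 0.018, RRM2 -0.0046 and CCNA2 0.011, RRM2 -0.069 (5 wk), CDK5RAP3 -0.068 (9 wk), MAD2L1 -0.011 (11 wk), and slopes of CDK9 0.0011 and CENPT 0.0021. With FL in 555 alone MAD2L2 was -0.013, CDT1 0.19 and MCM5 -0.13, and with FL in 647 alone PCNA 0.099, RRM2 -0.11, CCNA2 0.027, CDK1 -0.12 and BUB1 -0.18. Means also turned for RRM2 centred (-0.0016), PCNA scaled (0.0039), MCM5 with equal weights (-0.0011) or quantile normalization (-7.04e-05), PCNA and RRM2 with no dye term (0.0082 and -0.0070) or without the high liver arrays (0.021 and -0.0060). With 1 array left out the means ranged for BUB1 from -0.013 to 0.044, CCNA2 -0.033 to 0.0046, CDK1 -0.030 to 0.041, MCM5 -0.041 to 0.052, PCNA -0.045 to 0.035, RRM2 -0.020 to 0.025 and TOP2A -0.0028 to 0.044, and CCND1 at 7 wk from -0.077 to 0.41. The cause of these changes was not tested. Equal weights left 0 features called at 3 wk in place of 183.

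Arrays with the same replicate number had the same dye orientation at every age. Over 60 pairs of arrays with equal numbers the mean correlation of deviations was -0.062, against -0.090 for others of the same dye. Each array was compared with its own number and with the other number of the same dye, and 16 of 24 correlated more with their own. With the replicate block, which took the place of the dye term, the mean of CDK1 was -0.0046 and of CCND1 0.22. Kept single, spots gave counts but no gene values. Depth is not known for these ratios, so precision is judged by the spread between arrays and their number.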
